A study of Mus musculus with 6 samples.

Results

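The genes that load the replicative helicase onto DNA and that build the replication fork were followed in hematopoietic stem and progenitor cells with and without ING4. The set was chosen by gene symbol alone. It holds the protein-coding genes for the origin recognition complex (Orc1 to Orc6), the loading factors Cdc6 and Cdt1 and their inhibitor Gmnn, the MCM proteins (Mcm2 to Mcm10), Cdc7, Cdc45, the GINS complex (Gins1 to Gins4), primase and DNA polymerases alpha, epsilon and delta, the clamp Pcna and its loader (Rfc1 to Rfc5), the single-strand binding protein (Rpa1 to Rpa3), Fen1 and Lig1. It came to 47 of the 49315 genes in the count files, of which 21811 are protein-coding. RNA-seq had been done on 6 libraries. Long-term HSCs (LT-HSCs), short-term HSCs (ST-HSCs) and multipotent progenitors (MPPs) were sorted from WT C57BL/6 mice and from ING4-/- mice, a line without functional ING4 whose allele is not described further in the sources used here. All were lineage-negative, Sca-1+, c-Kit+ and CD48-. LT-HSCs were CD34- and CD150+, ST-HSCs were positive for both, and MPPs were CD34+ and CD150-. The WT controls were 8 to 12 weeks old, and the age of the ING4-/- mice used for sequencing is not given in the sources used here. Each library came from 1000 to 10000 cells sorted from the pooled marrow of 8 to 10 mice. There was therefore 1 library per genotype in each population, and the 3 populations stood in for replicates when the genotypes were compared, so the p-values measure the spread between populations and not between mice. Sets of 3 values follow the order LT-HSC, ST-HSC, MPP throughout.

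Before S phase, the origin recognition complex binds origins of replication, and with CDC6 and CDT1 it loads double hexamers of MCM2-7, the replicative helicase. This step is called licensing, and geminin, the product of Gmnn, blocks it outside G1 by binding CDT1. In S phase the kinase CDC7, CDC45 and GINS turn the loaded MCM2-7 into an active helicase, polymerase alpha with primase starts new strands, polymerase epsilon extends the leading strand and polymerase delta the lagging strand. Many of these genes are E2F targets. Long-term HSCs are mostly out of cycle, while ST-HSCs and MPPs divide more often. ING4 is a reader of trimethylated H3K4 and a subunit of complexes of the histone acetyltransferase HBO1.

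A sequence feature that the choice by symbol did not use was more frequent in the promoters of the set than in all promoters. In the RefSeq promoter windows of GRCm38.p6, which run from 250 bases before to 50 bases after each start, 39 of the 47 genes had an entry, with 49 windows between them. E2F-type motifs were searched as TTTCCCGC, TTTCGCGC, TTTGCCGC and TTTGGCGC on both strands, and 1 stretch can hold overlapping matches on opposite strands. They were present in 18 of the 49 windows (36.7%), belonging to 17 genes, against 744 of all 32851 windows (2.26%). The CCAAT box, searched as CCAAT on both strands, was present in 26 of the 49 windows (53.1%), against 37.4% of all windows. A match is a description of these letters and not evidence of binding. The 200 bases before the RefSeq start are shown for 3 subunits of the MCM2-7 helicase, for Orc1, the gene with the largest decrease in ING4-/- libraries, and for Pole4, the gene called higher in the most settings. All sequences printed here were picked from windows with an E2F-type match, using the first such window of each gene. The window of Mcm2 had no match, and Mcm7 and Lig1 also had windows at other RefSeq starts without a match. They are written 5′ to 3′ on the strand of the gene, with the E2F-type matches in capitals, and overlapping matches form 1 longer run. The RefSeq starts of Mcm5 and Mcm6 lie upstream of the GENCODE starts, and those of Mcm7, Orc1 and Pole4 lie within the GENCODE genes.
Mcm5, chr8:75109309-75109508, plus strand: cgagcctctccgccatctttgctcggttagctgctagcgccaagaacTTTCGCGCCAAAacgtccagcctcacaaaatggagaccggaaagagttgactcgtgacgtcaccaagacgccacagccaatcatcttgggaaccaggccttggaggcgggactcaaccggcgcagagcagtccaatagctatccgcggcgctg
Mcm6, chr1:128359706-128359905, minus strand: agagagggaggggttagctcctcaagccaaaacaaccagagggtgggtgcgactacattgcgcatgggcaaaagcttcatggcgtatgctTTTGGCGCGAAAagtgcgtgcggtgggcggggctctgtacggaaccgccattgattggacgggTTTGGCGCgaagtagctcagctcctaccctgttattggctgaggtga
Mcm7, chr5:138171884-138172083, minus strand: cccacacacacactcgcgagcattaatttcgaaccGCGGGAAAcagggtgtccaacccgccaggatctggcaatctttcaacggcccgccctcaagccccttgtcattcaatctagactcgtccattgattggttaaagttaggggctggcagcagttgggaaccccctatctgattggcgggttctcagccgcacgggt
Orc1, chr4:108579254-108579453, plus strand: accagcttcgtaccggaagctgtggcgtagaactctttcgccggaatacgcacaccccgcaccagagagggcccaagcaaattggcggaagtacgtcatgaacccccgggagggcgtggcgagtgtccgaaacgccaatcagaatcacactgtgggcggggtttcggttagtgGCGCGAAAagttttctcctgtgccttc
Pole4, chr6:82652866-82653065, minus strand: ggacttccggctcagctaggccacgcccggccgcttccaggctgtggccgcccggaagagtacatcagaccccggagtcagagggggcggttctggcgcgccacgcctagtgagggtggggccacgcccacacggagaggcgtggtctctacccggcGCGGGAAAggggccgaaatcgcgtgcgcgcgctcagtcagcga
The first match began 153 bases before the start in Mcm5, 110 in Mcm6, 165 in Mcm7, 27 in Orc1 and 43 in Pole4. For the loading factors and for 2 more genes with high values in ST-HSCs, only the first match with 8 bases on each side is shown, to compare the sites themselves.
Cdc6, chr11:98908005-98908028, plus strand: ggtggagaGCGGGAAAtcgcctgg
Cdt1, chr8:122568039-122568062, plus strand: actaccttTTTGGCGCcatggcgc
Mcm3, chr1:20820278-20820301, minus strand: cttccgtgGCGGGAAAacttggga
Lig1, chr7:13278844-13278867, plus strand: caaagtgcGCGCGAAAtctgtgtg
The 4 sites carried 3 of the 4 motifs. GCGGGAAA, the reverse complement of TTTCCCGC, stood in Cdc6 and Mcm3, TTTGGCGC in Cdt1, and GCGCGAAA, the reverse complement of TTTCGCGC, in Lig1.

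The libraries differed in depth and in background, and both bear on the values that follow. The WT libraries held 7839326 to 9363442 counts each and the ING4-/- libraries 35596876 to 39192588. Over 1702 olfactory and vomeronasal receptor genes, which blood cells do not use, the WT libraries held 22.7, 23.0 and 18.3 counts per kb of exon, while the ING4-/- libraries held at most 0.0811. At that density a background spread evenly over exons would make up 33.8%, 33.4% and 22.9% of the WT counts and at most 0.0267% of the ING4-/- counts. Background and genotype cannot be told apart, since all WT libraries had it and no ING4-/- library did. Ing4 itself had 247, 162 and 247 counts in WT and 0, 24 and 76 counts in ING4-/- libraries (log2 fold change -4.49, SE 1.56, adjusted p = 0.0373 by edgeR), and it was no longer called after background subtraction (adjusted p = 0.0873). Kit and Ly6a, the genes of c-Kit and Sca-1, had at least 311 counts in every library. Cd34, which separates LT-HSCs from the other populations, had its lowest count in the LT-HSCs of both genotypes, and Slamf1, which encodes CD150, had its lowest count in the MPPs of both. Cd48, whose protein the gate excludes, had 50, 154 and 376 counts in WT and 0, 1077 and 4300 counts in ING4-/- libraries.

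In WT, the counts of the 47 genes were 1.17 times (Gins2 in LT-HSCs) to 57.8 times (Mcm6 in MPPs) what the background would give for their exonic length. In 27 genes they were at least 5 times the background in every WT library. In 5 genes (Cdc6, Fen1, Gins2, Mcm8 and Mcm9) at least 1 WT library was under 2 times. Exons of Fen1 and Gins2 overlap genes on the opposite strand over 84.2% and 67.3% of their length, those of Orc2 over 29.8%, and those of Rfc2, Rfc4, Orc1 and Rfc5 over 10.7% to 15.1%. The strand setting of the counting is not given in the sources used here, so reads of these genes cannot be told apart from those of their partners over these stretches.

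The helicase subunits were the most abundant group per length in 5 of the 6 libraries, and in ING4-/- LT-HSCs the genes of polymerase delta had a higher median (64.1). Levels between genes were compared as TMM-normalised CPM (counts scaled to library size) per kb of exon. The median of Mcm2 to Mcm7 was 34.8, 65.0 and 63.7 CPM per kb in WT and 56.2, 155 and 133 in ING4-/- libraries. The origin recognition genes, which act in smaller numbers on the same origins, had a median of 9.94, 10.9 and 9.33 CPM per kb in WT and 7.96, 15.7 and 16.2 in ING4-/- libraries. Mcm2 was the lowest of the 6 helicase subunits in all 6 libraries, and Mcm6 was the highest in 5, with Mcm3 above it in WT LT-HSCs. The highest subunit exceeded the lowest by 2.26 to 4.84 times within a library. With 1 library per group, neighbours in this order could not be tested, and the middle subunits Mcm4, Mcm5 and Mcm7 changed places between libraries.

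**Figure D1:**
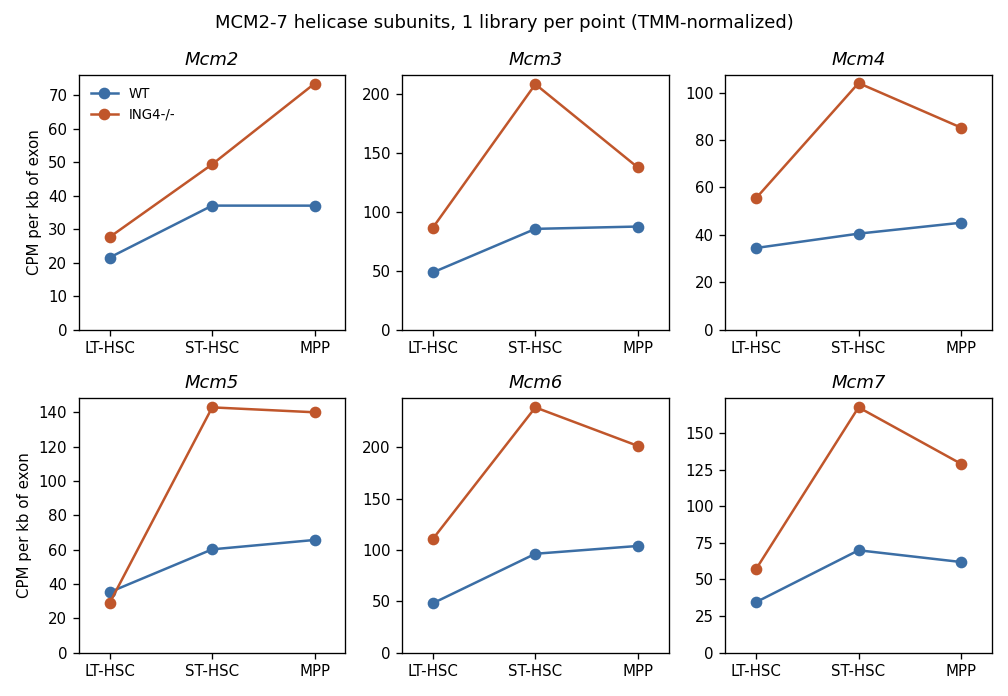
TMM-normalised CPM per kb of exon (vertical axes, from 0) of the 6 subunits of the MCM2-7 helicase by population, with 1 library per point, WT in blue and ING4-/- in orange. In both genotypes each subunit is lowest in LT-HSCs, and Mcm6 reaches 104 CPM per kb in WT MPPs and 239 in ING4-/- ST-HSCs.

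With all genes that passed edgeR's filter in one fit, 12 of the 47 genes were called higher in ING4-/- libraries and 2 lower (adjusted p below 0.05, log2 fold change beyond 1 in size). All 47 passed the filter. Over the 31001 genes tested, 64.6% were called, 7.98% higher and 56.7% lower. The fit's scale was not centred on expressed genes: the median log2 fold change was 0.55 for protein-coding genes that reached 10 counts in all 6 libraries and 0.65 for the 47 genes, of which 40 were positive. A gene at the level of its neighbours thus reads about 0.55 on this scale. The CPM values below carry the same offset, so a gap between groups in a gene that is higher can be partly or wholly this offset. The share of all genes whose groups do not overlap was not determined. When only genes that reached 10 counts in all 6 libraries were fitted (the 10-count fit), the median was 0.044 for protein-coding genes and 0.15 for the 46 members left, Mcm8 being the one that dropped out. In that fit 1 member was called higher (Pole4) and 4 lower (Orc1, Pole, Pola1 and Rfc1), beside 8.3% higher and 9.68% lower among all 9673 genes. With the background subtracted from the counts the same 5 genes were called, beside 5.65% higher and 38.6% lower among 19656 genes, and the median of the 47 genes was 0.16. The number called also depended on single libraries. Without the ING4-/- LT-HSC library 24 of the 47 genes were called, and without any one of the others 7 to 11. In these fits 64.6% to 74.1% of all genes had an unadjusted p under 0.05, against 68.6% with all libraries. Over the 21 settings that were run, Pole4 was called higher in 19, Pcna in 15, Pold2 in 14, Rpa2 and Rpa3 in 13, Orc6 in 11 and Fen1 in 8. Mcm6, Pold4 and Rfc5 were called higher in 7, and Mcm4 and Gmnn in 6. With population as a block, 12 genes were again higher and 2 lower, and Mcm7 and Gins2 took the places of Mcm4 and Fen1.

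**Figure D2:**
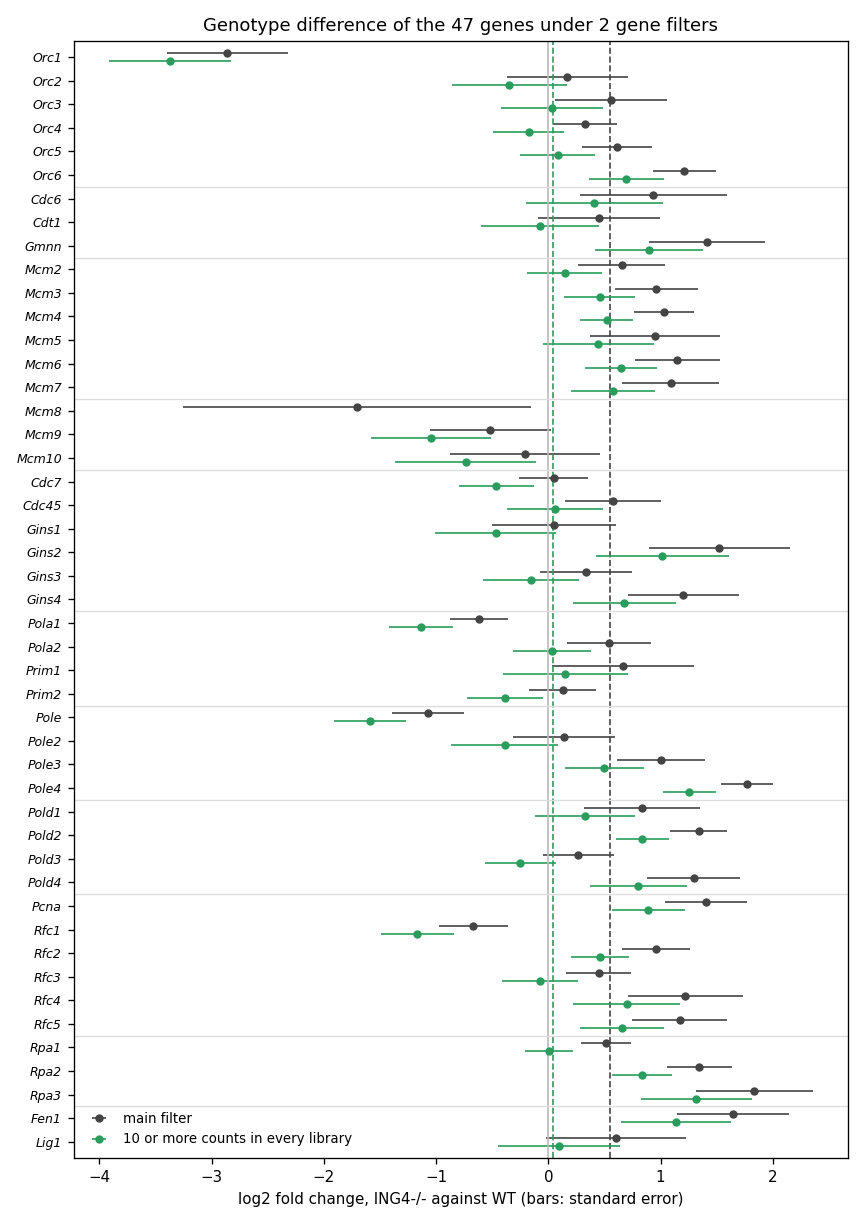
Log2 fold change of ING4-/- against WT with its standard error (horizontal axis) for the 47 genes, grouped by role, in the fit on all filtered genes (black) and in the 10-count fit (green, 46 genes). Dashed lines mark the median protein-coding gene in each fit, at 0.55 and 0.044, and Orc1, Pole, Pola1 and Rfc1 lie to the left of both lines.

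Orc1, the largest subunit of the origin recognition complex and the one whose protein level varies most over the cell cycle, was the most decreased gene of the set. It measured 30.9, 23.1 and 21.9 CPM in WT and 4.35, 3.83 and 2.27 CPM in ING4-/- libraries. Every ING4-/- library lay below every WT library. The log2 fold change was -2.86, SE 0.54, adjusted p = 0.00227 by edgeR, -3.37 in the 10-count fit and -3.15 after background subtraction. Orc1 was called lower in all 21 settings that were run, with log2 fold changes from -3.50 to -2.26. The WT counts were 3.71, 2.69 and 3.50 times the background, and the raw counts (293, 215 and 223 in WT, 136, 121 and 77 in ING4-/-) were lower in the deeper ING4-/- libraries.

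The other origin recognition genes did not follow Orc1. Orc6, which joins the complex to load the helicase, measured 30.5, 39.7 and 27.3 CPM in WT and 73.9, 77.7 and 74.3 CPM in ING4-/- libraries, and the groups did not overlap. It was called higher (log2 fold change 1.21, SE 0.28, adjusted p = 0.00603 by edgeR) and was not called in the 10-count fit (log2 fold change 0.69, SE 0.33, adjusted p = 0.171). Orc2, Orc3, Orc4 and Orc5 had log2 fold changes from 0.17 to 0.61 and were not called in the fit on all filtered genes. Over the 21 settings Orc3 was called higher in 1 and Orc5 in 2, and Orc2 and Orc4 in none.

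Among the loading factors, Cdc6 measured 18.9, 47.6 and 28.8 CPM in WT and 17.7, 97.8 and 66.8 CPM in ING4-/- libraries, and Cdt1 23.7, 53.8 and 32.5 and 20.4, 61.2 and 69.1 CPM. For both genes the ING4-/- LT-HSCs lay below the WT ones while the ING4-/- ST-HSCs and MPPs lay above their WT counterparts, and neither was called (adjusted p = 0.251 and 0.503 by edgeR). Cdt1 had a log2 fold change of 0.45 in the fit on all filtered genes and -0.07 in the 10-count fit. Gmnn, the inhibitor of CDT1, measured 28.3, 53.9 and 41.6 CPM in WT and 47.4, 182 and 101 CPM in ING4-/- libraries. The LT-HSCs of ING4-/- mice lay below the ST-HSCs of WT mice, so the groups overlapped. Gmnn was called higher (log2 fold change 1.41, SE 0.52, adjusted p = 0.0446 by edgeR) and was not called in the 10-count fit (log2 fold change 0.90, SE 0.48, adjusted p = 0.212).

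In the MCM2-7 helicase, the median log2 fold change of the 6 subunits was 1.00, and it was 0.49 in the 10-count fit and 0.23 after background subtraction. Mcm6 measured 224, 449 and 485 CPM in WT and 517, 1115 and 940.0 CPM in ING4-/- libraries. All ING4-/- libraries were above all WT libraries, and the log2 fold change was 1.15, SE 0.38, adjusted p = 0.0308 by edgeR. The gap, 517 CPM in ING4-/- LT-HSCs against 485 in WT MPPs, was smaller than the offset of the scale. Mcm4 measured 124, 145 and 162 CPM in WT and 199, 373 and 306 CPM in ING4-/- libraries (log2 fold change 1.03, SE 0.27, adjusted p = 0.0109 by edgeR). Here too the groups did not overlap, with a gap (199 CPM in ING4-/- LT-HSCs against 162 in WT MPPs) smaller than the offset. With population as a block Mcm4 was not called (log2 fold change 0.99, SE 0.20, adjusted p = 0.0369). Neither gene was called in the 10-count fit, where the log2 fold changes were 0.65 for Mcm6 and 0.52 for Mcm4.

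The other subunits were not called, and in each of them WT and ING4-/- libraries overlapped. Mcm2 measured 149.9, 258 and 257 CPM in WT and 192, 343 and 511 CPM in ING4-/- libraries. Mcm3 measured 183, 321 and 329 CPM in WT and 325, 782 and 517 CPM in ING4-/- libraries. Mcm7 measured 152, 309 and 274 CPM in WT and 252, 741 and 571 CPM in ING4-/- libraries. In all of these the ING4-/- library was the higher of the pair in each population, and the overlap came from ING4-/- LT-HSCs that lay below a WT ST-HSC or MPP library. Mcm5 measured 140.5, 240.2 and 262 CPM in WT and 116, 571 and 559 CPM in ING4-/- libraries, and in LT-HSCs the ING4-/- library was the lower of the pair. Their log2 fold changes ran from 0.65 for Mcm2 to 1.09 for Mcm7, with adjusted p from 0.0535 to 0.191 by edgeR. With population as a block Mcm7 was called higher (log2 fold change 1.02, SE 0.17, adjusted p = 0.0369).

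The remaining MCM proteins, which are not part of the replicative hexamer, had the lowest median CPM per kb of the groups in every library. Mcm8, which with MCM9 acts in homologous recombination, had 103, 361 and 251 counts in WT and 1, 118 and 646 counts in ING4-/- libraries, and the WT LT-HSC count was 1.22 times the background. Mcm9 had 239, 132 and 106 counts in WT, at 1.18 to 2.16 times the background, and 412, 368 and 340 in ING4-/- libraries. Mcm10, an initiation factor, measured 49.4, 56.4 and 44.6 CPM in WT and 9.62, 78.2 and 42.5 CPM in ING4-/- libraries. Mcm9 and Mcm10 were called in none of the 21 settings, and Mcm8 in none of the 18 in which it was tested.

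None of the 6 genes for helicase activation was called in the fit on all filtered genes or in the 10-count fit. Cdc7, the kinase that phosphorylates MCM2-7, had a log2 fold change of 0.05, SE 0.31, adjusted p = 0.909 by edgeR. Cdc45 measured 24.7, 58.2 and 38.6 CPM in WT and 42.1, 83.5 and 55.6 CPM in ING4-/- libraries, higher in the ING4-/- library of each pair. Over the 21 settings it was called higher in 1, and its log2 fold change ran from -0.36 to 1.17. The 4 GINS genes, whose products form 1 tetramer, ranged from 0.05 (Gins1) to 1.52 (Gins2) on the log2 scale, and Gins2 had an adjusted p of 0.0687 by edgeR. With population as a block Gins2 was called higher (log2 fold change 1.37, SE 0.42, adjusted p = 0.0369), with WT counts of 1.17 to 3.41 times the background.

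The polymerases differed among their subunits. In polymerase epsilon the catalytic subunit Pole was called lower and the small histone-fold subunit Pole4 higher. Pole measured 98.0, 148 and 117 CPM in WT and 45.2, 80.9 and 46.0 CPM in ING4-/- libraries, and the groups did not overlap (log2 fold change -1.08, SE 0.32, adjusted p = 0.0202 by edgeR). It was also called in the 10-count fit (log2 fold change -1.59, SE 0.32, adjusted p = 0.0102) and after background subtraction (log2 fold change -1.59, SE 0.35, adjusted p = 0.00651). Pole has 11160 bases of exon, and with a trend on gene length removed its log2 fold change was -0.45 (adjusted p = 0.429 by edgeR) and it was no longer called. Over the 21 settings it was called lower in 14 and was negative in all, and it was not called without the ING4-/- LT-HSC, the WT ST-HSC or the ING4-/- MPP library.

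Pole4 measured 60.3, 88.0 and 67.9 CPM in WT and 220.4, 287 and 229 CPM in ING4-/- libraries. The lowest ING4-/- library stood well clear of the highest WT library. The log2 fold change was 1.77, SE 0.23, adjusted p = 0.000657 by edgeR, 1.25 in the 10-count fit and 1.05 after background subtraction, and the gene was called in 19 of 21 settings. In the other two, among them the fit with the length trend removed (0.90, adjusted p = 0.0376 by edgeR), the size fell under the threshold of 1. Pole2 and Pole3, the other subunits, had log2 fold changes of 0.14 and 1.00 and were not called.

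Pola1, the catalytic subunit of polymerase alpha, measured 82.2, 93.6 and 81.9 CPM in WT and 43.1, 60.9 and 63.9 CPM in ING4-/- libraries, without overlap. It missed the call in the fit on all filtered genes (log2 fold change -0.62, SE 0.26, adjusted p = 0.0718 by edgeR) and was called lower in the 10-count fit (log2 fold change -1.13, SE 0.28, adjusted p = 0.0234) and after background subtraction (log2 fold change -1.08, SE 0.28, adjusted p = 0.0140). Its exons span 8813 bases, and with the length trend removed the log2 fold change was -0.28. Pola2, Prim1 and Prim2, its partners in primer synthesis, had log2 fold changes from 0.13 to 0.67 and were not called.

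In polymerase delta, Pold2 and Pold4, both accessory subunits, were called higher. Pold2 measured 85.1, 109.7 and 121 CPM in WT and 249, 341 and 207 CPM in ING4-/- libraries, without overlap (log2 fold change 1.34, SE 0.26, adjusted p = 0.00242 by edgeR). In the 10-count fit it had an adjusted p of 0.0359 by edgeR but a log2 fold change of 0.84, under the threshold. Pold4 measured 31.0, 19.4 and 32.0 CPM in WT and 98.3, 43.4 and 60.5 CPM in ING4-/- libraries (log2 fold change 1.30, SE 0.41, adjusted p = 0.0264 by edgeR). Its groups did not overlap, and its log2 fold change was -0.03 with the length trend removed. The gap, 43.4 CPM in ING4-/- ST-HSCs against 32.0 in WT MPPs, was smaller than the offset of the scale. The catalytic subunit Pold1 and Pold3 were not called.

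Pcna, the sliding clamp that holds the polymerases on DNA, measured 96.7, 161 and 129.7 CPM in WT and 214, 513 and 299.97 CPM in ING4-/- libraries. All ING4-/- libraries exceeded all WT libraries (log2 fold change 1.41, SE 0.36, adjusted p = 0.0106 by edgeR), and the gene had an adjusted p of 0.0828 by edgeR in the 10-count fit. The gap, 214 CPM in ING4-/- LT-HSCs against 161 in WT ST-HSCs, was smaller than the offset of the scale. Among the subunits of its loader, Rfc5 was called higher (log2 fold change 1.17, SE 0.42, adjusted p = 0.0429 by edgeR), with 83.8, 129 and 114 CPM in WT and 135, 406 and 196 CPM in ING4-/- libraries. It was not called in the 10-count fit (0.66). Rfc1, the large subunit of the loader, measured 104, 106 and 108 CPM in WT and 96.4, 56.0 and 47.9 CPM in ING4-/- libraries. The log2 ratio of ING4-/- to WT was -0.11, -0.92 and -1.17 in the 3 populations, and the groups did not overlap. Rfc1 was called lower in the 10-count fit (log2 fold change -1.17, SE 0.32, adjusted p = 0.0338 by edgeR) and after background subtraction, and not in the fit on all filtered genes (log2 fold change -0.67, SE 0.31, adjusted p = 0.0973) or with the length trend removed (-0.77, adjusted p = 0.152 by edgeR).

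Of the genes for replication protein A, which coats single-stranded DNA, Rpa2 and Rpa3 were called higher and Rpa1 was not. Rpa2 measured 65.4, 117 and 100.2 CPM in WT and 182, 266 and 272 CPM in ING4-/- libraries (log2 fold change 1.35, SE 0.29, adjusted p = 0.00427 by edgeR). Rpa3 measured 21.8, 23.5 and 25.5 CPM in WT and 30.3, 121 and 101 CPM in ING4-/- libraries (log2 fold change 1.83, SE 0.52, adjusted p = 0.0162 by edgeR). Both were without overlap, but for Rpa3 the gap (30.3 CPM in ING4-/- LT-HSCs against 25.5 in WT MPPs) was smaller than the offset. In the 10-count fit neither was called (log2 fold change 0.84, SE 0.26, adjusted p = 0.0527 for Rpa2 and 1.32, SE 0.49, adjusted p = 0.0899 for Rpa3, by edgeR). Fen1, the flap endonuclease of Okazaki fragment maturation, measured 7.06, 11.4 and 11.4 CPM in WT and 25.3, 44.0 and 23.9 CPM in ING4-/- libraries (log2 fold change 1.64, SE 0.50, adjusted p = 0.0217 by edgeR). Its WT counts were 1.22 to 2.61 times the background and most of its exons overlap genes on the opposite strand, so its level is uncertain. With population as a block it was not called (log2 fold change 1.62, SE 0.70, adjusted p = 0.0978). Lig1, the ligase that joins Okazaki fragments, was not called.

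**Figure D3:**
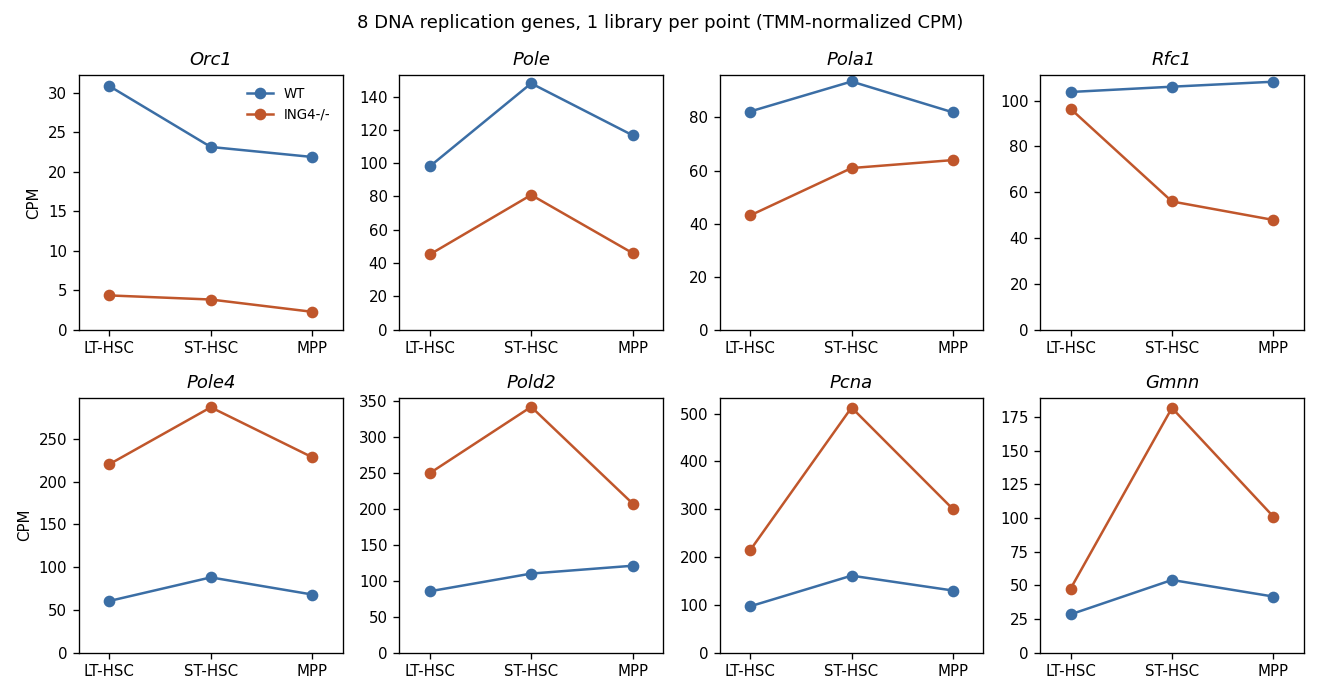
TMM-normalised CPM (vertical axes, from 0) of Orc1, Pole, Pola1 and Rfc1 (upper row) and Pole4, Pold2, Pcna and Gmnn (lower row) by population, with 1 library per point, WT in blue and ING4-/- in orange. The ING4-/- library is the lower of the pair in every population of the upper row and the higher in every population of the lower row, on a scale where the median expressed protein-coding gene reads 0.55 (log2) higher in ING4-/- libraries.

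Markers of other cells were read in the same fit, in which 56.7% of all genes were called lower. Of 9 erythroid markers 4 were called higher and 1 lower in ING4-/- libraries, and their summed level was 34.5 to 53.4 CPM in WT and 108 to 230 CPM in ING4-/- libraries, with Alas2 at 0 counts in all 3 ING4-/- libraries. Of 9 granulocyte markers tested 2 were called higher, with sums of 99.8 to 329 CPM in WT and 369 to 670 CPM in ING4-/- libraries. Of 4 megakaryocyte markers 1 was called higher, with sums of 174 to 326 CPM in WT and 268 to 1031 CPM in ING4-/- libraries. Of 8 B cell markers 5 were called lower and 1 higher (sums of 102 to 128 CPM in WT and 70.3 to 125 CPM in ING4-/- libraries), with Cd79a, Ms4a1, Pax5, Igll1 and Ebf1 at 0 in all ING4-/- libraries. Of 8 T and NK cell markers tested 5 were called lower (85.7 to 167 CPM in WT and 61.5 to 308 CPM in ING4-/- libraries), with Cd3e, Cd3g, Trac and Ncr1 at 0 in all ING4-/- libraries. In the 10-count fit 1 B cell marker and 2 T and NK cell markers were left, and 0 of them were called lower. Of 5 stem cell markers 1, Hlf, was called higher and 0 lower, with sums of 767 to 1042 CPM in WT and 989 to 1794 CPM in ING4-/- libraries. Flt3, a progenitor marker, had 286, 474 and 1956 counts in WT and 1, 991 and 10829 counts in ING4-/- libraries and was not called. The part of these markers in the differences of the 47 genes was not tested. In bulk samples, fewer cells of a type and less RNA per cell cannot be told apart.

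Mki67, which encodes the proliferation antigen Ki-67 and was taken as a check because cells in cycle express it, was lower in ING4-/- libraries. It measured 47.7, 132 and 76.5 CPM in WT and 0.735, 1.58 and 9.93 CPM in ING4-/- libraries. Every ING4-/- library was below every WT library, and the log2 fold change was -4.38, SE 1.07, adjusted p = 0.00807 by edgeR and -4.81, SE 1.17, adjusted p = 0.0112 after background subtraction. In the same 2 fits Mcm2 to Mcm7 and Pcna had log2 fold changes from 0.65 to 1.41, beside 0.55 for the median expressed protein-coding gene, and from -0.07 to 0.62, beside 0.25. Of all 47 genes 40 were positive in the first fit (median 0.65) and 25 in the second (median 0.16).

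The second comparison was between populations, with genotype as a term in the fit. At an adjusted p under 0.05 no gene of the 31001 was called between any pair of populations by edgeR (0% in each of the 3 contrasts), and no member was called by DESeq2. Each population had 2 libraries, 1 of each genotype. At an unadjusted p under 0.05 by edgeR, 20 of the 47 genes were higher in ST-HSCs than in LT-HSCs and 0 lower, beside 1.29% of all genes higher and 0.694% lower. For MPPs against LT-HSCs there were 11 higher and 0 lower, beside 1.5% and 0.313%. For MPPs against ST-HSCs there were 0 in either direction. When 1 library was left out, the median log2 fold change of the 47 genes was 0.53 to 0.87 for ST-HSCs against LT-HSCs. That of protein-coding genes that reached 10 counts in all libraries was -0.08 to 0.08. For MPPs against LT-HSCs the 2 medians were 0.30 to 0.55 and -0.04 to 0.21. DESeq2 gave 3 members for ST-HSCs and 1 for MPPs at an unadjusted p under 0.05, and edgeR without genotype as a term gave 4 and 1. Of all genes, 4.93% and 6.07% were at that level by DESeq2, and 0.213% and 0.194% by edgeR without genotype as a term. In the 10-count fit there were 19 and 10 of 46 members, beside 8.39% and 7.26% of all genes in either direction. For ST-HSCs against LT-HSCs, MPPs against LT-HSCs and MPPs against ST-HSCs, 38, 37 and 11 of the 47 log2 fold changes were positive, with medians of 0.78, 0.49 and -0.24.

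The background of the WT libraries was alike in LT-HSCs and ST-HSCs (33.8% and 33.4% of counts) and lower in MPPs (22.9%). Within WT, 36 of the 47 genes were higher in ST-HSCs than in LT-HSCs (median log2 ratio 0.59, against 0.02 for the 9017 protein-coding genes that reached 10 counts in all libraries). The ratio was over 1 for 10 members, against 7.01% of those protein-coding genes. For MPPs against LT-HSCs it was over 1 for 5 members, against 10.7%, with medians of 0.39 and 0.21. Within ING4-/- libraries, 39 of the 47 genes were higher in ST-HSCs than in LT-HSCs (median 0.91, against 0.07), and the ratio was over 1 for 22 members, against 18.5%. For MPPs against LT-HSCs it was over 1 for 17 members, against 17.6%. ST-HSCs held the highest level of 27 members in WT (21.6% of the protein-coding genes) and of 30 members in ING4-/- libraries (35.5%). LT-HSCs held the lowest level of 32 members in WT (45.0%) and of 36 in ING4-/- libraries (40.3%). With 1 library per group these are values without a test.

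**Figure D4:**
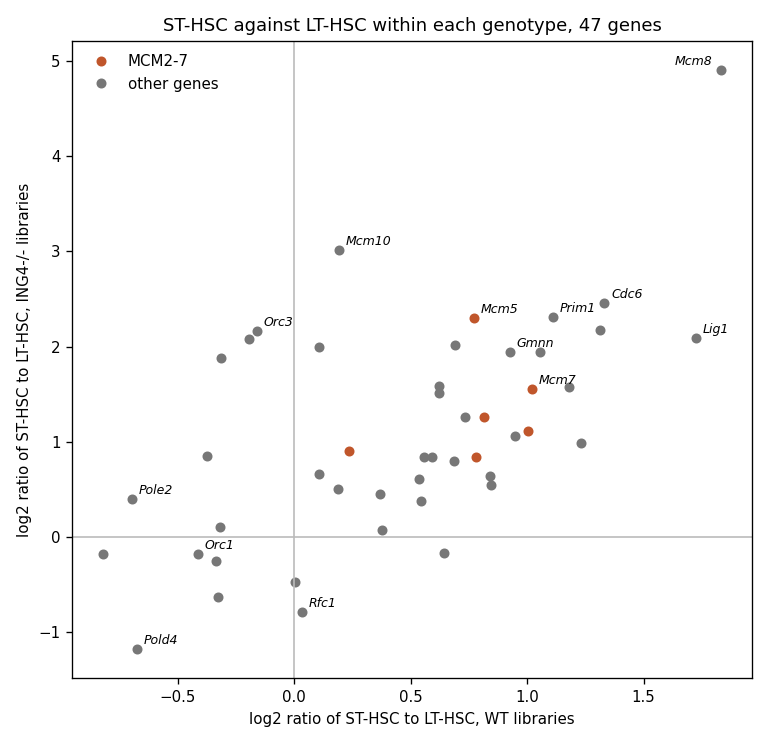
Log2 ratio of ST-HSCs to LT-HSCs within the WT libraries (horizontal axis) and within the ING4-/- libraries (vertical axis) for the 47 genes, with Mcm2 to Mcm7 in orange, from TMM-normalised CPM with a prior count of 2. Of the 47 genes 36 lie to the right of 0 and 39 above 0, and the largest ratio, 4.91 for Mcm8, rests on 1 count in ING4-/- LT-HSCs.

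All 6 helicase subunits had higher levels in ST-HSCs and in MPPs than in LT-HSCs in both genotypes. The fitted log2 fold changes of ST-HSCs against LT-HSCs ran from 0.58 (Mcm4) to 1.49 (Mcm5), and 5 of the 6 had an unadjusted p under 0.05 by edgeR, all but Mcm4. Between MPPs and ST-HSCs the median of the 6 was -0.07. The loading factors Cdc6 and Cdt1 and their inhibitor Gmnn had fitted log2 fold changes of 1.86, 1.36 and 1.44 for ST-HSCs against LT-HSCs, each with an unadjusted p under 0.05 by edgeR and none past the adjusted threshold.

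At the fork, Lig1 had the largest fitted difference among genes with an unadjusted p under 0.05 (log2 fold change 1.93, SE 0.32). It had 403, 1305 and 1203 counts in WT and 1991, 8584 and 4121 counts in ING4-/- libraries. Prim1, the catalytic subunit of primase, came next among the polymerase genes (1.64, SE 0.46), followed by the catalytic subunit Pold1, Rfc4, Rfc5 and Pcna (the last 3 at 1.31, 1.13 and 1.00). The origin recognition genes did not share this order. Their median was 0.22, none of the 6 had an unadjusted p under 0.05, and 2 of 6 were higher in ST-HSCs than in LT-HSCs in WT against 4 of 6 in ING4-/- libraries. Pold4 was lower in ST-HSCs than in LT-HSCs in both genotypes (-0.94, SE 0.45).

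The ratio of ING4-/- to WT was read within each population as a value without a test. Its median over the 47 genes was 0.35, 0.95 and 0.78, beside 0.58, 0.61 and 0.39 for the 9017 protein-coding genes. The members thus lay below the protein-coding median in LT-HSCs and above it in ST-HSCs and MPPs. The sum of all 47 genes was 3198, 4802 and 4606 CPM in WT and 4680, 9954 and 7963 CPM in ING4-/- libraries. A test of genotype by population was not possible, since 1 library per cell of the design leaves no residual degrees of freedom.

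The partners of these genes in S phase were read from a list of 66 genes (kinases and firing factors, fork protection and checkpoint, nucleotide synthesis, chromatin assembly, primer removal and ligation, and E2F and pocket proteins). By genotype 7 were called higher and 4 lower, beside 7.98% and 56.7% of all genes tested. Their median was 0.38, beside 0.55 for the median expressed protein-coding gene. In the 10-count fit 2 were higher and 5 lower of 53, beside 8.3% and 9.68% of all genes. The highest were Asf1a, a histone chaperone (log2 fold change 1.98, SE 0.35, adjusted p = 0.00170 by edgeR), and E2f1, an activating E2F (log2 fold change 1.88, SE 0.48, adjusted p = 0.0105). The lowest were Rb1, the retinoblastoma protein (log2 fold change -4.52, SE 1.57, adjusted p = 0.0372 by edgeR), which had 0, 64 and 19 counts in ING4-/- libraries, and Clspn, the checkpoint mediator claspin (log2 fold change -2.23, SE 0.64, adjusted p = 0.0166). Between ST-HSCs and LT-HSCs 56 of the 66 were positive (median 0.89), beside 52.4% of all genes. At an unadjusted p under 0.05 by edgeR 15 were higher in ST-HSCs and 0 lower, beside 1.29% and 0.694% of all genes.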

How the data were processed

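The 6 libraries were grouped by the genotype in their labels. The authors deposited raw read counts per gene, with no normalization. The submitters' processing notes name mm10, and the aligner, the counting program and the strand setting are not given in the sources used here. Symbols came from the GENCODE annotation of GRCm38, which held 49056 of the 49315 gene identifiers. The promoter sequences are RefSeq's.

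From the counts, ING4-/- and WT libraries were compared with the quasi-likelihood test of edgeR 4.0.16 in R 4.3.3, after filterByExpr by genotype and TMM normalization, and populations in the same way with genotype as a term. P-values were adjusted over all genes tested by the Benjamini-Hochberg method. A call needed an adjusted p below 0.05 and a log2 fold change beyond 1 in size. SE was derived from the fold change and its F statistic. Log2 ratios used TMM-normalized CPM with a prior count of 2. DESeq2 1.42.0 was the other count test. Background subtraction took the receptor gene density of a library times the exonic length from each count.

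Libraries of 1 population deviated together from their genotype means (over 9673 genes r = 0.143, 0.110 and 0.121 in the order LT-HSC, ST-HSC, MPP). Populations therefore paired the libraries, and blocking on population was tried. The other alternatives were other normalizations, filters, gene length, thinning and leaving out libraries. The fits were tested on simulated data. No molecular identifiers are given, so a count of 0 allows up to 3 counts for counting error only, which is 0.383 CPM in WT LT-HSCs and 0.0765 CPM in ING4-/- MPPs.

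Full values were given for every called gene and for Mcm2 to Mcm7, Cdc6, Cdt1, Gmnn and Pcna, and for the 2 highest and 2 lowest called partners. Any other gene given with values was picked with its values in view. The 47 genes, the partner and marker lists and the rules were chosen with earlier results of these data known. The result of 1 marker gene is not reported here.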

Additional observations from a re-analysis of the deposited data

Results flagged for a closer look

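Of the 46 genes that reached 10 counts in all 6 libraries, 4 had a ratio of ING4-/- to WT below 0 in LT-HSCs, above 0 in ST-HSCs and more than 2 log2 units higher there. Mcm8, with 1 count in ING4-/- LT-HSCs, was not considered. For Orc3 the log2 ratio was -0.91, 1.41 and 0.41 in the order LT-HSC, ST-HSC, MPP, a span of 2.33. For Mcm10 it was -2.35, 0.47 and -0.07, a span of 2.82. For Gins1 it was -1.27, 0.93 and -0.07, a span of 2.20. For Gins4 it was -0.29, 1.99 and 1.22, a span of 2.28. Each value rests on 1 library per genotype, so the difference between populations was not tested. The share of all genes that meet the same rule was not determined. In all 4 genes the WT libraries differed little between LT-HSCs and ST-HSCs, and most of the span lay in the ING4-/- libraries, where the counts of LT-HSCs and ST-HSCs were 1546 and 7028 for Orc3, 301 and 2472 for Mcm10, 362 and 1357 for Gins1, and 1418 and 6084 for Gins4.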

How the results depend on the processing

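Orc1 was called lower in all 21 settings, and the direction of the 2 genes called lower did not change. The number of genes called by genotype, 14 (12 higher, 2 lower), and the median log2 fold change of all members tested, 0.654, did change. They were 6 (3 and 3) and 0.286 with DESeq2 size factors in edgeR, and 6 (3 and 3) and 0.286 with DESeq2. With upper-quartile normalization they were 28 (27 and 1) and 1.24, and without a filter on low counts 1 gene was lower. With at least 10 counts in every library they were 5 (1 and 4) and 0.148. With the background subtracted they were 5 (1 and 4) and 0.162, and with both 4 (0 and 4) and 0.0452. With the length trend removed they were 1 (0 and 1) and 0.199. Thinning to the smallest total gave 8 called (6 higher), and protein-coding genes alone gave 5 (2 higher) and 0.310. Leaving out libraries or whole populations gave 3 to 24 called, 2 to 22 higher, 1 to 3 lower and medians from 0.476 to 0.985. The lowest count was without both MPP libraries, the highest without the ING4-/- LT-HSC library or both LT-HSC libraries.

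Some values changed sign. Cdt1 was -0.0722 with at least 10 counts, -0.100 with the background subtracted, -0.2025 with both and -0.269 with the length trend removed, and -0.110 to 0.857 when libraries or populations were left out. Mcm2 was -0.0726 with the background subtracted and -0.159 with at least 10 counts left as well. Pold4 was -0.0322 with the length trend removed. The cause was not tested. These sign changes were read for the genes called in the fit on all filtered genes, Mcm2 to Mcm7, Cdc6, Cdt1, Gmnn, Pcna, Pola1, Rfc1 and Rfc2. Of the other genotype values of these genes, 290 kept their side of the threshold, 132 lost it and 30 gained it. Further members also changed sign, among them Gins1, Cdc7, Orc2 and Pold3, positive in 7, 9, 10 and 12 of 21 settings. Population as a block changed the calls of Mcm4, Fen1, Mcm7 and Gins2 and no other call of the 47 genes.

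Between populations no setting gave a call, and a population left with 1 library was taken to vary like the others. The median of MPPs against LT-HSCs, 0.486, was 0.331 with DESeq2 size factors, 0.330 with DESeq2, 0.334 with the background subtracted and at least 10 counts left, and 0.299 to 0.553 when 1 library was left out. That of ST-HSCs against LT-HSCs, 0.776, was 0.528 to 0.868 when 1 library was left out. The background of the WT libraries limits Cdc6, Fen1, Gins2, Mcm8 and Mcm9, which were under 2 times the background in at least 1 of them.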
